A study of Mus musculus with 3 samples.

Results

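The adult globin genes of mouse skin cells were described: *Hbb-bs* and *Hbb-bt*, which encode beta chains of haemoglobin, and *Hba-a1* and *Hba-a2*, which encode its alpha chains. They were chosen by name, and they make up 4 of 19927 symbols found in at least 1 of the 3 matrices. Already known were their pooled levels, shares of cells with a count, alpha-beta co-detection and levels in a class of cells defined further below. Values of these kinds therefore describe the members and are no test. Single cells came from dorsal skin of mice at postnatal day (P) 18, taken up from the epidermal side after trypsin and pooled from 3 male animals for each library. The groups compared were 2 libraries of control mice (*Vdr* flox/flox, loxP sites in the vitamin D receptor gene and no Cre) and 1 library of *Vdr* cKO mice (*Vdr* flox/flox; Krt14cre), in which the *Krt14* promoter of basal keratinocytes and the hair follicle epithelium drives the Cre recombinase. All 3 libraries therefore carry the floxed allele. With 1 *Vdr* cKO library no test between genotypes was possible, and each value below is a value of 1 library.

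Erythroid cells make haemoglobin from alpha and beta chains in balanced amounts, and they accumulate globin mRNA to very high levels before the nucleus is lost. Reticulocytes still hold this mRNA, so blood in a tissue is a known source of globin reads. Keratinocytes are not oxygen carriers, although low globin expression in epidermis has been described, and *Krt10* and *Lor* mark the spinous and the granular step of their differentiation.

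On GRCm38 (GENCODE M21), *Hbb-bs* lies at chr7:103826534-103828096 and *Hbb-bt* at chr7:103812524-103813996, both on the minus strand. *Hba-a1* lies at chr11:32283511-32284465 and *Hba-a2* at chr11:32296489-32297298, both on the plus strand. Each gene has 3 exons in its first protein-coding transcript. The beta transcripts differed at 46 of 626 aligned bases, with an identity of 92.7%. The alpha transcripts differed at only 1 of 538 aligned bases, C577T, counted from the 5′ end of the *Hba-a1* transcript. This base lies in the coding part of exon 3, at chr11:32284343 in *Hba-a1* and at chr11:32297160 in *Hba-a2*. It lies 122 bases from the 3′ end of the *Hba-a1* transcript and 138 bases from that of *Hba-a2*. The stretches around it are shown because only this base and the transcript ends tell the alpha genes apart. The differing base is in capitals (chr11:32284313-32284373 and chr11:32297130-32297190, plus strand).
Hba-a1: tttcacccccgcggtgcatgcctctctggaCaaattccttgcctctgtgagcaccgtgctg
Hba-a2: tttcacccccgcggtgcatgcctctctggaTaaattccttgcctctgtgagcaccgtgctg

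Of the 455 stretches of 100 bases in the *Hba-a2* transcript, 25.5% were in no other member, and of the 600 in *Hba-a1*, 43.5%. The longer *Hba-a1* annotation gives part of that share, with 161 bases at the 5′ end that *Hba-a2* lacks, whereas *Hba-a2* runs 16 bases further at the 3′ end. How reads that match both genes were counted is not given in the sources used here. The split between *Hba-a1* and *Hba-a2* is therefore uncertain, and sums of the alpha genes are given beside it.

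The sequence just before the RefSeq start sites is shown so that the alpha genes can be compared there too. Except for *Hba-a2*, the stretches lie inside the GENCODE gene intervals given above, which begin further upstream. The *Hba-a1* stretch is therefore part of the 161 bases that set its GENCODE transcript apart from that of *Hba-a2*. Since the split of the alpha counts is uncertain, it was not compared with these sequences. All 4 genes matched the RefSeq table (GRCm38.p6). The motif TATAA is in capitals.
Hbb-bs, chr7:103827943-103827967, minus strand: gggcagagcaTATAAggtgaggtag
Hbb-bt, chr7:103813937-103813961, minus strand: gcattgggtaTATAAagctgagcag
Hba-a1, chr11:32283635-32283659, plus strand: ttggagggcaTATAAgtgctacttg
Hba-a2, chr11:32296452-32296476, plus strand: ttggagggcaTATAAgtgctacttg

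In the 100 bases before the start, the alpha genes were identical over all 97 bases that could be aligned, and the beta genes over 76 of 98. Searched on both strands, the motif TATAA, the motif CCAAT and the motif CACCC were found in each of the 4 windows, and GATAA in none, and no matches overlapped. Over all 32851 windows of this length, 10.2% held TATAA, 18.9% CCAAT, 27.2% CACCC and 8.55% GATAA, and 0.472% held the first 3 together. TATAA began 27 to 30 bases before the start in the members.

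A barcode counted as a cell when it had 200 or more genes and mitochondrial counts of no more than 20%, which left 5760 cells, 1480 and 1658 from the controls and 2622 from *Vdr* cKO skin. They held 18802408 to 30954897 counts a library, with medians of 4055 to 4492.5 counts and 377 to 688.5 genes a cell. Kept cells whose barcode sequence also occurred in another library numbered 20 to 28 a library and held at most 0.667% of its globin counts. *Vdr* itself stood at 40.7, 35.9 and 80.8 CPM (counts per 1000000 counts of the cells of a library). The deleted allele lacks exon 3 alone, so these counts of the whole gene do not check the deletion.

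The level of a library is the sum of a gene's counts over its cells, in CPM with an exact Poisson 95% interval that covers counting error only. *Hbb-bs*, the major adult beta globin gene, stood at 38.8 CPM in control 1 (36.1 to 41.7), 194.6 CPM in control 2 (189.5 to 199.8) and 6.66 CPM in the *Vdr* cKO library (5.78 to 7.63). *Hbb-bt*, the second adult beta gene, stood at 2.13 CPM (40 counts), 61.5 CPM (1763 counts) and 0.226 CPM (7 counts). Control 2 was the highest library for both beta genes and the *Vdr* cKO library the lowest. *Hba-a1* stood at 47.7 CPM in control 1 (44.6 to 50.9), 135.5 CPM in control 2 (131.3 to 139.8) and 52.4 CPM in the *Vdr* cKO library (49.8 to 55.0). *Hba-a2* stood at 14.9, 71.7 and 3.295 CPM in the same order. *Hba-a1* was the only member whose *Vdr* cKO level did not lie below both controls. Summed over the 4 members, the libraries held 103.6, 463 and 62.5 CPM.

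A gene was called when a library lay more than 2-fold above or below both others on log2(CPM + 1), and 3919 genes that reached 50 CPM somewhere were tested. Control 2 was above both other libraries for 9 genes (0.23% of those tested), and these included all 4 members. The *Vdr* cKO library was below both controls for 45 genes (1.15%), and these included *Hbb-bs*, *Hbb-bt* and *Hba-a2*. *Hbb-bs*, *Hbb-bt* and *Hba-a2* reached 50 CPM in control 2 alone, so they entered the tested genes only through that library. These contrasts are also those by which the members were picked, so the calls describe them and are no test.

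Most of the globin of control 2 lay in a pair of barcodes. They held 10528 of the 13290 globin counts of the library (79.2%), in 0.535% of its counts. The deeper barcode had 116972 counts, of which 3623 were *Hbb-bs*, 1253 *Hbb-bt*, 1709 *Hba-a1* and 1473 *Hba-a2*. The shallower had 36544 counts, with 1325, 318, 494 and 333 of the same genes. Globin made up 6.89% and 6.76% of their counts, whereas the next barcode by globin counts in any library held 113. The barcode sequences are shown because the shallower is the deeper after loss of its first base; the 11 shared bases are in capitals.
deeper: aGCACGGGAGGT
shallower: GCACGGGAGGTt

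**Figure D1:**
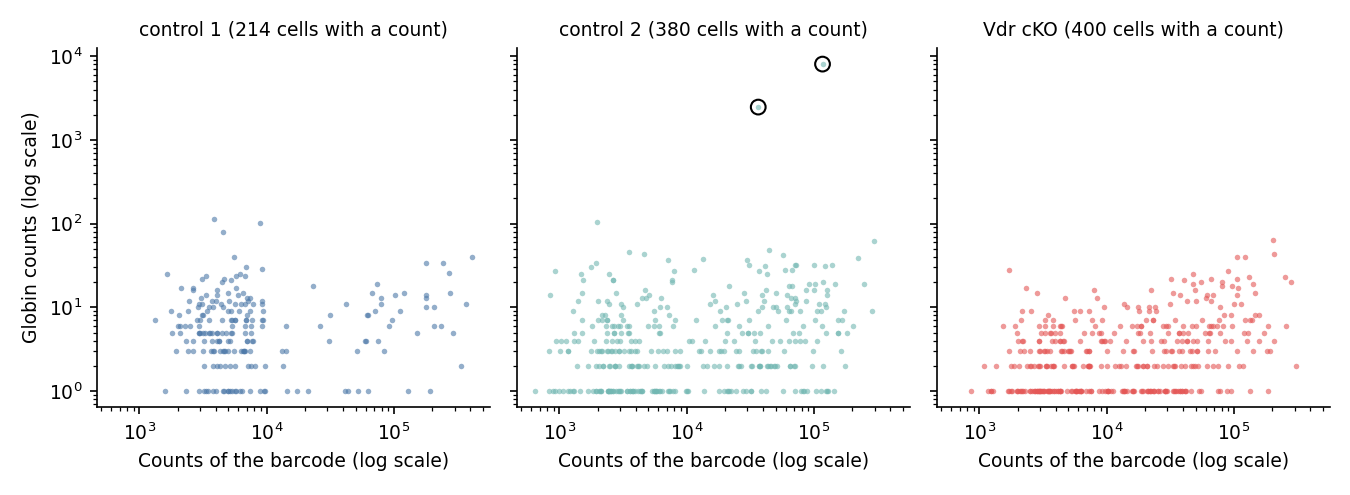
Globin counts (the 4 members summed) against all counts of each cell with at least 1 globin count, in 3 panels for control 1, control 2 and the *Vdr* cKO library, both axes on log scales and 1 point a cell. The circled pair in control 2 holds 8058 and 2470 globin counts, and no other cell of the 3 libraries holds more than 113.

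Over the genes that are not members, the profiles of the pair correlated at r = 0.932. Among all pairs of the 230 cells of control 2 at least as deep as the shallower barcode the median r was 0.475, and the highest r of either with any other barcode was 0.630. Of the genes of the shallower barcode, 90.7% were also in the deeper. Barcodes that match after loss of 1 base numbered 140, 329 and 518 pairs of kept cells in control 1, control 2 and the *Vdr* cKO library. Over all barcodes there were 365, 436 and 563 such matches within the libraries, and between a library and another they numbered 103 to 182. The pairs of kept cells had median r of 0.831, 0.828 and 0.760 against 0.241, 0.268 and 0.286 over all pairs of cells. These values are descriptions, and whether both barcodes of the pair came from 1 bead was not tested.

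The pair carried a keratinocyte profile beside its globin. *Krt10*, a keratin of spinous cells, stood at 47148 and 45206 CPM, *Lor*, of the granular layer, at 274 and 848 CPM, and *Krt14*, of basal cells, at 1 and 0 counts. By the lower of the 2 ratios to the other cells, *Tent5c*, a poly(A) polymerase known from blood cells, ranked next after the 4 members. It had 82 and 19 of its 104 counts of the library in the pair. *Jrkl*, *Gm19950*, *Psmb10*, *Ergic1*, *Rpp30*, *Gm37204* and *Tmem219* followed in rank. *Alas2*, the erythroid enzyme that starts haem synthesis, had 10 and 4 counts. *Trim58*, a ubiquitin ligase of late erythroblasts, had 2 counts in the pair, and the other 8 genes of the erythroid list that are in the files had none there. *Mkrn1*, a ubiquitin ligase retained in reticulocytes, had 65 counts. *Tfrc*, the transferrin receptor, and *Bnip3l*, which clears mitochondria from reticulocytes, had none. *Slc25a37*, *Bpgm*, *Fech*, *Car2* and *Isg20* of the reticulocyte-retained list had none either, and *Ube2l6* had 7. *Tent5c* also belongs to that list and held 101 of the 173 counts of the list in the pair. Summed with it, the list stood at 1127 CPM in the pair and 391 CPM in the rest of control 2. Genes of haem synthesis stood at 13.0 and 199 CPM.

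Without the pair, the level of control 2 was lower for each member. *Hbb-bs* stood there at 22.3 CPM (20.6 to 24.0), *Hbb-bt* at 6.73 CPM, *Hba-a1* at 59.0 CPM (56.2 to 61.9) and *Hba-a2* at 8.80 CPM. The sum of the 4 was 96.8 CPM, beside 103.6 CPM in control 1 and 62.5 CPM in the *Vdr* cKO library. *Hba-a1* was then close in the 3 libraries, between 47.7 and 59.0 CPM. The other 3 members still were lowest in the *Vdr* cKO library. The pair held 88.6% of the *Hbb-bs*, 89.1% of the *Hbb-bt* and 87.8% of the *Hba-a2* counts of control 2, and 56.7% of its *Hba-a1* counts. Only *Hba-a1* reached 50 CPM without the pair, so it was the only member tested, and it was not called. Of 3917 genes tested, 4 (0.102%) were called above in control 2 and 42 (1.07%) below in the *Vdr* cKO library. The other 3 members fell under the level limit and went untested. Relative to control 1 and control 2, the log2 level of *Hbb-bs* in the *Vdr* cKO library stood at -2.38 and -1.60. For *Hbb-bt* it was -1.35 and -2.66, and for *Hba-a2* -1.89 and -1.19. The *Hbb-bt* level of the *Vdr* cKO library, 0.226 CPM, lies under the pseudocount of 1 CPM, which shrinks its log2 values. Without a pseudocount, control 1 stood 9.41-fold above the *Vdr* cKO library for *Hbb-bt*, on 40 and 7 counts.

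**Figure D2:**
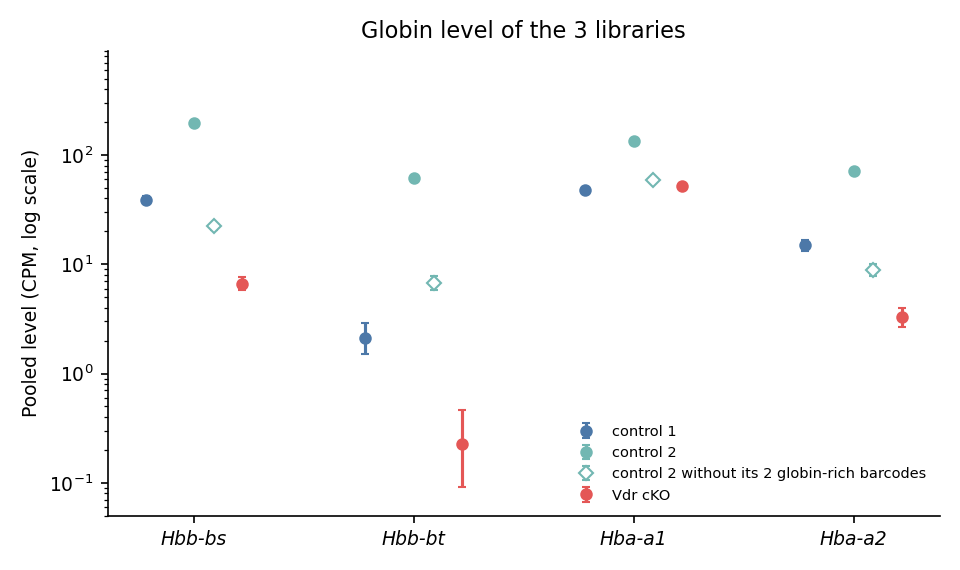
Pooled level of each member (CPM, log axis) in control 1, control 2 and the *Vdr* cKO library, with exact Poisson 95% intervals; the open diamond is control 2 without its 2 globin-rich barcodes. *Hba-a1* lies between 47.7 and 59.0 CPM in the 3 libraries without the pair, whereas the *Vdr* cKO value of each other member is the lowest of its column.

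On the log2 scale, the summed beta genes of the *Vdr* cKO library stood at -4.25 relative to the control mean, and at -2.19 without the pair. The summed alpha genes stood at -1.26, and at -0.23 without the pair. For *Hbb-bs* the difference was -3.94 and -2.04 without the pair, for *Hbb-bt* -4.74 and -2.15, for *Hba-a2* -3.37 and -1.58, and for *Hba-a1* -0.79 and -0.03. The controls themselves differed by 2.15 over the 4 genes, control 2 being the higher, and by -0.10 without the pair. The summed beta and the summed alpha levels were thus lowest in the *Vdr* cKO library with or without the pair, and the size of either difference depended on the pair. For the alpha genes it was small without it, with 55.7 CPM in the *Vdr* cKO library beside 62.7 and 67.8 CPM in the controls.

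Cells with a count were compared after each cell was thinned to 1000 counts, which left 1466, 1597 and 2562 cells, since depth alone changes how often a gene is seen. A beta count was present in 3.96% of the cells of control 1 (exact Clopper-Pearson 95% interval 3.02 to 5.08), 4.70% of control 2 (3.71 to 5.85) and 0.820% of the *Vdr* cKO library (0.508 to 1.25). The interval of the *Vdr* cKO library did not overlap those of the controls, and the pair weighs as only 2 cells here. These intervals take the cells of 1 library as units, so they hold no spread between libraries. Of the kept cells, 301, 642 and 972 had a barcode that matched another of their library after loss of 1 base. Whether such barcodes came from 1 bead was not tested, and if they did, the intervals are too narrow. How many other genes have intervals that separate in this way was not computed. An alpha count was present in 4.71%, 5.82% and 3.98% of cells, with overlapping intervals. Those of control 2 (4.73 to 7.09) and the *Vdr* cKO library (3.26 to 4.81) overlapped only narrowly, in 1 random draw of counts. The alpha and beta genes did not divide cleanly. The *Hba-a2* interval of the *Vdr* cKO library (0.187 to 0.717) lay below those of both controls, as that of *Hbb-bs* did. The *Hbb-bt* intervals of control 1 and the *Vdr* cKO library overlapped. By gene, *Hba-a1* was seen in 3.41%, 4.57% and 3.63%, *Hbb-bs* in 3.75%, 3.94% and 0.742%, *Hba-a2* in 1.50%, 1.63% and 0.390%, and *Hbb-bt* in 0.205%, 1.00% and 0.0781%. Any member was seen in 8.25%, 9.96% and 4.80%. Without thinning that share was 14.5%, 22.9% and 15.3%.

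**Figure D3:**
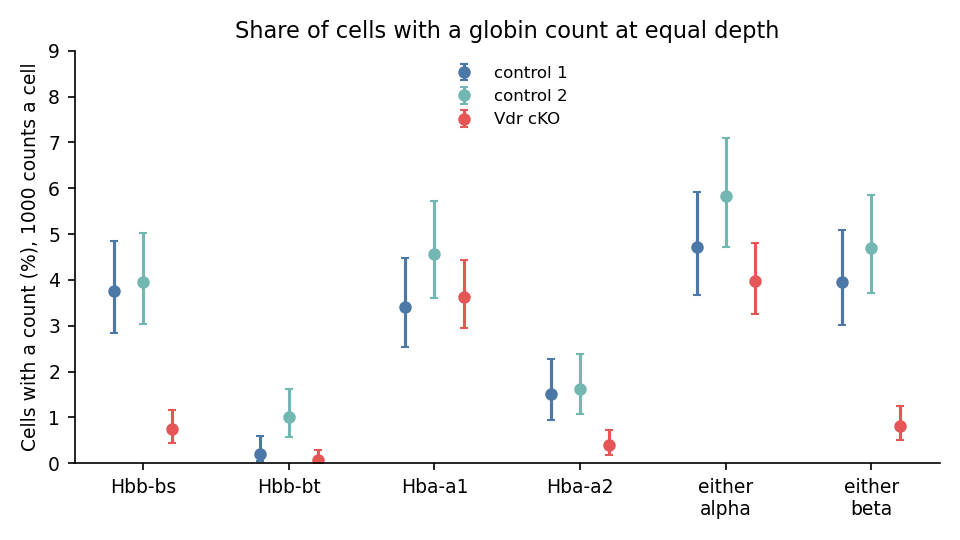
Share of cells with at least 1 count of each member, of either alpha gene and of either beta gene, after thinning to 1000 counts a cell, with exact 95% intervals, for control 1, control 2 and the *Vdr* cKO library. The beta shares of the controls are 3.96% and 4.70% and that of the *Vdr* cKO library is 0.820%. The 3 intervals for either alpha gene overlap, those of control 2 and the *Vdr* cKO library narrowly. The *Hba-a2* interval of the *Vdr* cKO library lies below those of both controls.

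Apart from the pair, most cells had no globin count. Among cells with any member the median was 6 counts in control 1 and 3 counts in each of the other libraries. The counts were uneven between cells: the 35 highest barcodes of control 1 and the 56 highest of the *Vdr* cKO library held 50% of their globin, and 64 and 48 cells had 10 or more counts. For the beta genes, 7 barcodes held 50% of the counts in the *Vdr* cKO library and 16 in control 1. A cell with *Hbb-bs* held on average 8.90 counts of it in control 1, 5.62 in control 2 without the pair and 4.12 in the *Vdr* cKO library. For *Hba-a1* these means were 8.38, 7.35 and 4.91. Since the mean per positive cell also was lowest in the *Vdr* cKO library, the pooled beta difference is made of fewer positive cells and fewer counts in each. The matrices do not show whether copies of 1 molecule were merged, and fewer positive cells and less RNA in each cannot be told apart from differences in amplification.

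Most cells with *Hba-a1* had no other member, and most cells with another member had no *Hba-a1*. In the *Vdr* cKO library 314 cells had *Hba-a1* and no other member, with a median of 17440 counts, and 70 had another member without *Hba-a1*, with a median of 5563 counts. In control 2 these were 189 cells with a median of 25623 counts and 149 cells with 3169, and in control 1 98 cells with 6891.5 and 107 cells with 5292. Cells that held *Hba-a1* together with another member numbered 9, 40 and 16 in control 1, control 2 without the pair and the *Vdr* cKO library, where the single shares multiplied give 8.39, 26.1 and 10.8. The members were thus not found apart more often than their shares give. At 1000 counts a cell these numbers were 5, 9 and 1 against 2.59, 4.23 and 1.13. All 4 members were present in 1 cell of control 1, in the pair of control 2 and in no cell of the *Vdr* cKO library.

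The cells of each library were split into 3 equal groups by total counts. The share with *Hba-a1* rose with depth, from 3.04% in the shallowest group to 11.8% in the deepest in control 1, from 4.88% to 26.8% in control 2 and from 4.12% to 25.6% in the *Vdr* cKO library. At 1000 counts a cell it stayed between 2.92% and 5.07% in all 9 groups. The share with *Hbb-bs*, *Hbb-bt* or *Hba-a2* behaved otherwise in control 2, where at 1000 counts it was 9.35% and 8.32% in the shallow and middle groups and 0.906% in the deepest. In control 1 it was 4.17%, 5.07% and 6.29%, and in the *Vdr* cKO library 0.983%, 1.60% and 1.03%. Without the pair the deepest group of control 2 stood at 0.545%. The level of these 3 members, in CPM, was lowest in the deepest group of every library, with 169, 174 and 31.4 CPM from shallow to deep in control 1, 487, 146 and 9.35 CPM in control 2 without the pair and 37.3, 19.9 and 7.06 CPM in the *Vdr* cKO library. That of *Hba-a1* was 88.4, 133 and 33.2 CPM, 133, 84.2 and 53.5 CPM, and 66.0, 53.5 and 51.3 CPM. A lower level in the deepest cells was thus seen in all libraries, both for the 3 members and for *Hba-a1*. For *Hba-a1* in the *Vdr* cKO library the step was small, from 53.5 CPM in the middle to 51.3 CPM in the deepest group. A lower share of the 3 members at equal depth was seen in control 2.

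**Figure D4:**
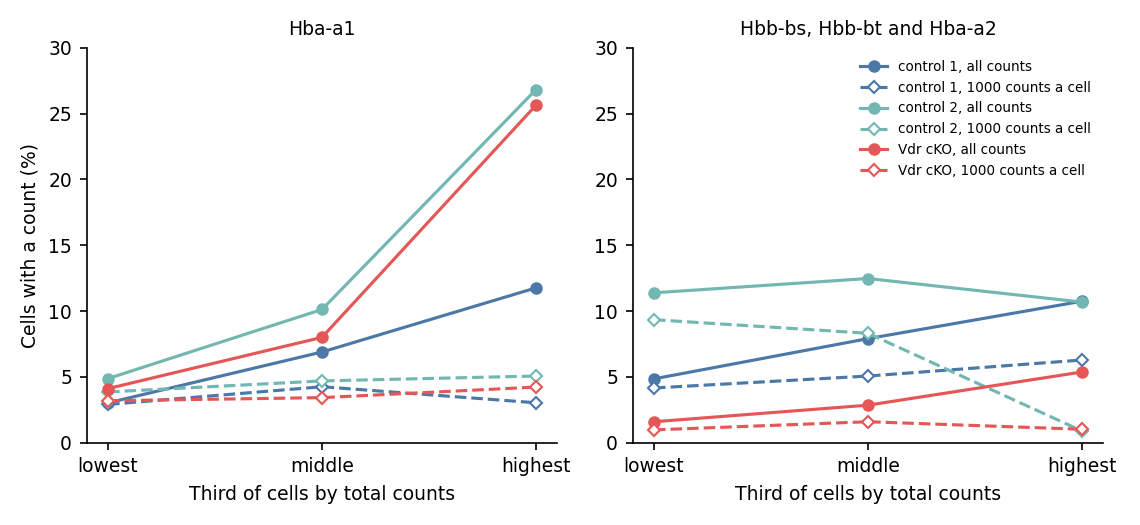
Share of cells with *Hba-a1* (left) and with *Hbb-bs*, *Hbb-bt* or *Hba-a2* (right) in 3 equal groups of cells by total counts; solid lines use all counts and dashed lines 1000 counts a cell, and colours mark the libraries. The solid *Hba-a1* lines climb to between 11.8% and 26.8% while the dashed ones stay at 2.92% to 5.07%, and the dashed line of control 2 on the right falls to 0.906%.

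Cells with *Krt10* above and *Lor* below the medians of their library numbered 389, 445 and 544. This class is a range of the levels of these genes and not a cell type. They were the deeper cells, with median counts of 5150, 13757 and 6898 against 3995, 3583 and 3686.5 in the other cells. With the pair, which falls in this class, the 4 members of control 2 stood at 818 CPM in it and 107 CPM in the other cells, and the class therefore looked rich in globin. Without the pair the class held 86.8 CPM, which is below the other cells. In control 1 the class held 58.1 CPM and the other cells 147 CPM, and in the *Vdr* cKO library 78.8 and 54.6 CPM. Of 3919 genes, 4 (0.102%) lay more than 2-fold above in the class in every library, and no member was among them. The members were chosen with their levels in this class known, so these values describe them and are no test.

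The members went apart in this class too. Without the pair, *Hba-a1* stood at 42.7 CPM in the class and 52.5 CPM in the other cells of control 1, a ratio of 0.813 (0.710 to 0.929). In control 2 it stood at 74.1 and 44.0 CPM (ratio 1.69, 1.53 to 1.86), and in the *Vdr* cKO library at 73.5 and 42.1 CPM (ratio 1.75, 1.58 to 1.93). Its pooled direction in control 1 was thus opposite to that in the other libraries. Split by depth, the controls were alike in direction. In the shallow and middle groups the class stood at 41.6 and 105 CPM against 100.5 and 140 CPM in control 1. In control 2 it stood at 21.2 and 50.9 CPM against 152.9 and 92.4 CPM. In the deepest group it stood higher, at 39.3 against 25.8 CPM in control 1 and, with the pair, 235 against 27.2 CPM in control 2. In the *Vdr* cKO library it stood higher in all 3 groups. *Hbb-bs*, *Hbb-bt* and *Hba-a2* were also summed as a set, which was formed with their levels in these libraries already known. Together they were lower in the class in all 3 libraries, with ratios of 0.164 (0.136 to 0.195), 0.201 (0.171 to 0.237) and 0.425 (0.311 to 0.571). Of these, *Hba-a2* had a ratio of 0.120, 0.666 and 0.938, the last with an interval that includes 1 (0.597 to 1.44). At 1000 counts a cell *Hba-a1* was in 2.84%, 5.66% and 5.41% of the class and in 3.61%, 3.99% and 3.16% of the other cells, and the other 3 members in 2.58%, 3.39% and 1.87% against 6.12%, 6.94% and 1.04%. At equal depth the share of the 3 members was thus lower in the class in both controls and was not lower in the *Vdr* cKO library. The intervals just failed to overlap in control 1 (1.25 to 4.70 and 4.76 to 7.72), which holds no such pair. In control 2 they just failed to overlap without the pair (1.91 to 5.536 and 5.540 to 8.56) and overlapped when it was kept. These shares rest on 1 random draw of counts, and gaps this narrow could close in another, which was not made. The intervals also take barcodes that match after loss of 1 base as separate units. How many other genes separate in this way was not computed.

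**Figure D5:**
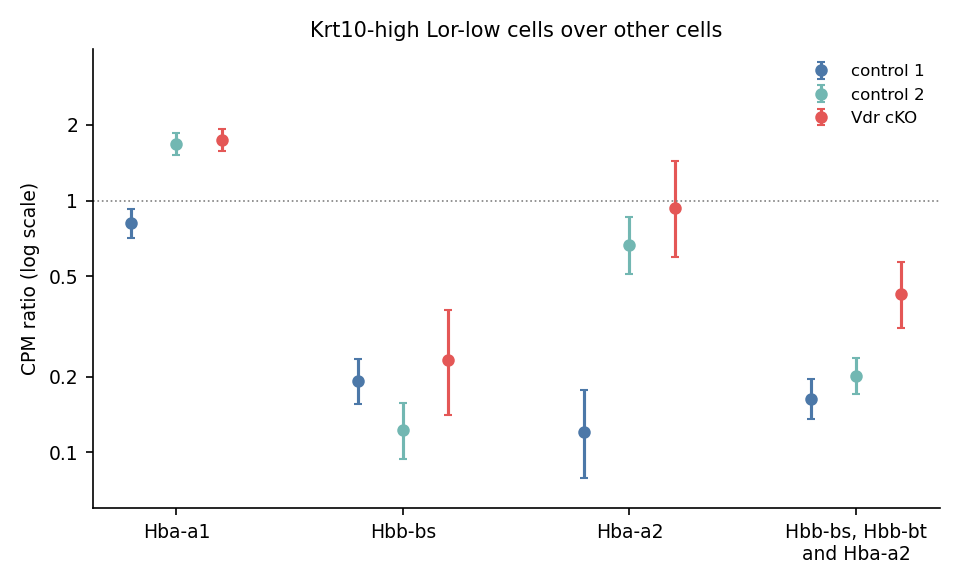
Ratio of the CPM in *Krt10*-high *Lor*-low cells to that in all other cells of the same library (log axis), without the globin-rich pair, with exact 95% intervals, for *Hba-a1*, *Hbb-bs*, *Hba-a2* and the sum of *Hbb-bs*, *Hbb-bt* and *Hba-a2*; the dotted line marks equal levels. *Hba-a1* lies above 1 in control 2 and the *Vdr* cKO library and at 0.813 in control 1, whereas the sum of the other 3 lies between 0.164 and 0.425.

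Alpha counts exceeded beta counts in cells of every library once the pair was left out. The ratio of summed alpha to summed beta counts was 1.53 in control 1 (1.40 to 1.68), 2.34 in control 2 without the pair (2.16 to 2.54) and 8.09 in the *Vdr* cKO library (7.01 to 9.37). In the pair it was 0.615 (0.591 to 0.640), and with the pair that of control 2 was 0.809. Most of the difference lay in *Hba-a1*, which had 3.19, 6.71 and 15.9 counts for each *Hba-a2* count in control 1, control 2 without the pair and the *Vdr* cKO library, against 1.22 in the pair. *Hba-a2* for each beta count varied less, with 0.365, 0.304 and 0.479 in the libraries and 0.277 in the pair.

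The alpha to beta ratio also differed within libraries. In *Krt10*-high *Lor*-low cells it was 3.73, 14.4 and 35.3, and in the other cells 1.15, 1.04 and 4.95. In the 10% of cells with the highest globin share it was 1.03, 1.38 and 6.61, and in the next 10% 13.0, 7.06 and 29.1, all without the pair. The cells of the next 10% were deeper in each library, with medians of 7332, 21116 and 16979 counts against 4474, 2725.5 and 5563.

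Few cells held both alpha and beta counts. At 1000 counts, 6 cells of control 1 and 9 of control 2 did (7 without the pair), where the single shares multiplied give 2.73 and 4.37 (4.16). In the *Vdr* cKO library no cell of 2562 did, where the shares give 0.836, and a count of 0, taken to allow 3 cells, allows up to 0.117%. Without thinning the numbers were 9, 29 and 6 cells against 8.09, 23.0 and 7.36, with the pair. *Hba-a1* with *Hba-a2*, whose transcripts are nearly identical, was found in 5 cells of control 1, 17 of control 2 without the pair and 10 of the *Vdr* cKO library, where the shares give 2.24, 7.05 and 3.902. The 10 cells are 32.3% of those with *Hba-a2* in the *Vdr* cKO library and 3.03% of those with *Hba-a1*. These counts are small, and deep cells raise every such number.

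Other erythroid genes were near the limit of detection. Of the 17 genes of the erythroid list, 10 had a row in a matrix, and their sum was 2.34, 5.58 and 6.01 CPM, which does not follow the globin order. *Alas2* had 38, 15 and 4 counts, and 14 of the 15 in control 2 were those of the pair. *Hemgn*, a nuclear protein of erythroid progenitors, had 0, 120 and 118 counts. *Epb42*, of the red cell membrane skeleton, had 0, 19 and 3 counts, and *Sptb*, the erythroid beta spectrin, had 6, 0 and 14. *Slc4a1*, the band 3 anion exchanger, had 3 counts in the *Vdr* cKO library, and *Klf1*, the transcription factor of the beta locus, 1 there. *Ermap*, an erythroblast membrane protein, had 17 and *Tmcc2* 26 counts in the *Vdr* cKO library. *Gata1*, *Epor*, *Ahsp*, *Rhag*, *Rhd* and *Tspo2* were not listed. Of 10 other globins, 3 had counts: *Cygb*, cytoglobin of fibroblast-like cells, with 3, 17 and 150, *Mb*, the myoglobin of muscle, with 14 in the *Vdr* cKO library, and *Hbq1a*, of the alpha cluster, with 11 in control 2. The embryonic globins were not listed.

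Lists of other cells of blood and vessels were low as well. Of 9 neutrophil genes, 2 were in the files and summed to 15.5, 32.8 and 4.30 CPM: *S100a8*, at 8.99, 23.7 and 0.323 CPM, and *S100a9*, at 6.49, 9.06 and 3.97 CPM. Both encode calgranulins, which keratinocytes can also make, and the defining *Ly6g*, *Camp* and *Ngp* were not listed. Platelet genes (4 of 6 in the files) summed to 2.07, 1.50 and 3.81 CPM, with *Gp1bb* highest and *Ppbp* not listed, and endothelial genes (8 of 8) to 4.89, 10.5 and 2.58 CPM. Over the mean of the libraries *Cldn5*, at 0.0532, 7.56 and 0.388 CPM, and *Pecam1*, at 2.98, 1.19 and 0.355 CPM, were highest, whereas *Kdr* led in the *Vdr* cKO library at 1.10 CPM. The neutrophil and endothelial sums were lowest in the *Vdr* cKO library, whereas the erythroid and platelet sums were highest there. The order of the erythroid sums rests largely on *Hemgn*, at 0, 4.18 and 3.81 CPM. The part of blood cells in the globin levels was not tested.

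Genes of haem synthesis, which every cell runs, summed to 326.9, 198 and 435 CPM, with all 8 in the files. *Cpox* stood at 78.3, 63.7 and 104 CPM, *Alad* at 65.3, 26.7 and 188 CPM, and *Fech*, which inserts the iron, at 50.5, 37.6 and 42.0 CPM. Genes of haem and iron handling (12 of 12) summed to 740, 616 and 1165 CPM, led by the ferritin heavy chain *Fth1* at 380, 287 and 686 CPM, with *Ftl1*, its light chain, and *Blvrb*, a biliverdin reductase, next. Reticulocyte-retained genes (10 of 12) summed to 354, 395 and 361 CPM, led by *Bnip3l* at 204, 218 and 175 CPM, *Mkrn1* and *Fech*. None of these sums follows the beta genes from library to library. In the 10% of cells highest for the haem synthesis list, *Hba-a1* stood at 46.9, 43.5 and 40.4 CPM against 47.8, 61.3 and 53.4 CPM in the other cells, without the pair. The other 3 members stood there at 9.30, 65.4 and 21.03 CPM against 61.9, 33.7 and 9.25 CPM, lower in control 1 and higher in the other libraries.

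By cell, the correlations of the members were weak even with the highest-ranking genes, and *Hba-a1* and the other 3 members had different genes on top. Of 2989 genes seen in at least 5% of the cells of every library, the 5 with the highest lowest correlation to the summed members over cells were *Krt77*, a suprabasal keratin, *Dynll1*, a dynein light chain, *Krt10*, *Krt1*, its keratin partner, and *Krtdap*, a secreted protein of differentiating keratinocytes. For *Krt77* r was 0.092, 0.095 and 0.104 over the cells of control 1, control 2 and the *Vdr* cKO library, and for *Krt10* 0.069, 0.106 and 0.117. Without the pair, *Hba-a1* had an r of 0.064, 0.121 and 0.156 with *Krt10* and of -0.005, -0.054 and 0.020 with *Lor*. The sum of *Hbb-bs*, *Hbb-bt* and *Hba-a2* had an r of 0.036, 0.034 and -0.030 with *Krt10* and of 0.080, 0.092 and 0.027 with *Lor*, and *Lce1c*, of the late cornified envelope, ranked highest for it, at 0.054, 0.043 and 0.044. The cells of a library share its depth range, and correlations of this size in sparse counts are no more than a ranking. In the 10% of cells highest for granular genes, *Hbb-bs*, *Hbb-bt* and *Hba-a2* together stood at 29.2, 15.2 and 9.85 CPM, without the pair. In the other cells they stood higher in every library, at 60.5, 40.9 and 10.2 CPM. In the 10% highest for spinous genes, *Hba-a1* stood at 40.4, 57.2 and 89.0 CPM against 48.9, 59.3 and 39.2 CPM. In the 10% of cells highest for basal keratinocyte genes, *Hba-a1* stood at 115.9, 41.9 and 10.5 CPM in control 1, control 2 and the *Vdr* cKO library against 43.8, 59.8 and 56.3 CPM in the other cells, without the pair. The other 3 members stood there at 85.5, 147 and 8.59 CPM against 54.2, 32.6 and 10.3 CPM. Basal-high cells thus had the higher pooled level of the 3 members in both controls, and of *Hba-a1* in control 1. In these cases the share of cells with a count, not thinned, differed little. For the 3 members it was 7.43% against 7.88% in control 1 and 12.1% against 11.3% in control 2. For *Hba-a1* in control 1 it was 6.76% (10 cells) against 7.28%. In control 2 and the *Vdr* cKO library the share with *Hba-a1* was lower in basal-high cells, at 6.67% against 14.6% and 5.34% against 13.4%. For the 3 members in the *Vdr* cKO library it was 3.82% against 3.22%.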

How the data were processed

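Dissociated cells of P18 dorsal skin (3 male mice pooled for each library) were captured in droplets with the RNAdia 2.0 chemistry and sequenced. The authors deposited a whole-number count for each gene and barcode, not normalized, as 1 matrix a library; the submitters' notes name the mm10 build, the study's methods name Seurat for aligning the datasets, and a read aligner, the annotation and the handling of molecular identifiers are not given in the sources used here. No doublet caller was used, and cells were not clustered.

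Cells had at least 200 genes and at most 20% mitochondrial counts. Counts were summed by library or cell class and given in CPM; intervals (exact Poisson and Clopper-Pearson, 95%) cover counting error only and are too narrow where molecules were counted more than once. Log2 values use a pseudocount of 1 CPM. Shares used cells thinned to 1000 counts. With 1 *Vdr* cKO library there was no test, so no p-value is given. The pair of globin-rich barcodes (more than 1000 globin counts) was left out in an alternative chosen after the data were seen. The members, the set of *Hbb-bs*, *Hbb-bt* and *Hba-a2*, and the gene lists were chosen with earlier results of these data known. Genes named besides the members were *Krt10*, *Lor*, *Krt14* and *Vdr*, each erythroid or other-globin gene with a count (some list genes are not reported here), the 3 highest genes of other lists and the 5 genes most like the members; genes of the pair and the lists' defining genes at 0 were named after their values were seen. Lists of inner root sheath, antigen-presenting, T, cycling, melanocyte and fibroblast genes are described in the closing section only. Sequences and positions came from GENCODE M21 and RefSeq tables of GRCm38. Python 3 scripts used NumPy, SciPy and Biopython; scaling factors came from edgeR 4.0.16 and DESeq2 1.42.0. Calls, thinning and co-detection were tested on simulated data.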

Additional observations from a re-analysis of the deposited data

Results flagged for a closer look

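Barcodes outside the limits for cells, which enter no comparison above, also held globin. The 4 members summed to 217 CPM over 1308 such barcodes of control 1 (248 counts), 296 CPM over 802 of control 2 (163 counts) and 87.3 CPM over 160 of the *Vdr* cKO library (11 counts). In control 1 and the *Vdr* cKO library this was above the level in cells, and in control 2 above that of cells without the globin-rich pair. *Hbb-bs* stood at 151, 152 and 39.7 CPM there and *Hba-a1* at 19.3, 99.7 and 0 CPM, and the ratio of alpha to beta counts was 0.425, 0.716 and 1.20. The last rests on 11 counts. How far this globin enters the barcodes kept as cells was not tested.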

How the results depend on the processing

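Settings were changed for the summed levels, the class ratio, the shares and the co-detection of alpha and beta counts. The log2 difference of the summed beta genes was -2.19 or lower in every setting run. It was -2.35 with each gene counted once per cell, -2.20 without the 1% of cells highest in globin share and -2.19 without the pair, against -4.25, and without either control in turn -2.41 to -5.03. For all 4 members it was -0.50 without that 1%, against -2.16, and -0.72 to -2.87 without either control. For the alpha genes it was -0.17 to -1.88 without either control. The class ratio of the 4 members in the controls was 0.80 on the log2 scale and -1.32 to 2.93 without either control, and the pair decides it. The share with any member was 9.10% in the controls (8.25% to 9.96% without either) and 4.80% in the *Vdr* cKO library; it was 18.7% and 15.3% unthinned, 12.05% and 7.67% at 2000 counts and 6.54% and 3.17% at 500 counts. The co-detection ratio of the controls was 2.13 (2.06 to 2.20 without either), 2.64 over all barcodes, 1.94 at 300 genes or without the pair, 1.89 for cells of 1000 to 20000 counts, 2.02 without the smaller barcode of each loss-of-1-base pair, 1.21 without the highest 1%, 1.19 unthinned, 1.55 at 2000 and 2.46 at 500 counts. That of the *Vdr* cKO library was 0, and 0.815 unthinned. The cause of these moves was not tested. The settings for the pair, for loss-of-1-base barcodes and for depth were chosen after the data were seen. No paired analysis was possible because no label links a control library to the *Vdr* cKO library.

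The limits are 1 *Vdr* cKO library, animals pooled within libraries, unknown merging of molecules, near-identical alpha transcripts, and counts of 0 to 10 cells behind the co-detection. The libraries also differed in genes of cell types, with basal genes at 4587, 3267 and 12427 CPM in control 1, control 2 and the *Vdr* cKO library. How far such differences enter the globin differences was not tested.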

Other observations

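The remaining gene lists were summed in the same way. Spinous genes stood at 69422, 79681 and 52505 CPM in control 1, control 2 and the *Vdr* cKO library, granular genes at 19337, 18444 and 15571 CPM and basal genes at 4587, 3267 and 12427 CPM. Inner root sheath genes stood at 0.585, 2.54 and 235 CPM, antigen-presenting genes at 168, 242 and 326 CPM, T cell genes at 158, 102 and 199 CPM, and cycling genes at 75.4, 55.8 and 227 CPM. Melanocyte genes stood at 4.10, 3.49 and 39.3 CPM and fibroblast genes at 8.72, 0.767 and 3.78 CPM. The barcodes with most globin in control 1 held 113, 103 and 80 counts, of which 89, 14 and 38 were *Hba-a1*. In the *Vdr* cKO library the 3 barcodes with most held 64, 44 and 40 globin counts, of which 64, 44 and 39 were *Hba-a1*.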
